A study of Mus musculus with 55 samples.

Results

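The immediate early genes described here are Nr4a1, Fos, Egr1, Jun, Junb, Atf3, Ier2, Ier3 and Maff, 9 genes measured in 55 mouse hearts. They were chosen by name, as the probe sets of the array that are annotated to exactly 1 of these symbols. The rule found 10 probe sets for the 9 genes, among 18194 genes that the array's single-symbol probe sets name, and Jun had 2. Each gene is represented by its brightest probe set on average. The members, and the other gene lists below, were chosen with earlier results of these data known. Counts over them are therefore descriptions.

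Immediate early genes are transcribed within minutes of a stimulus such as a growth factor, stretch, hormone or stress, from factors already present in the cell, and their mRNAs are short-lived. Kinase cascades act on serum response factor with its ETS partners, and cAMP and calcium signals act on CREB, to start their transcription. Most of the products are transcription factors that set off a later wave of genes. In the heart they are known as early markers of haemodynamic load, adrenergic stimulation and ischaemia, and tissue handling before freezing can also raise them. Fos, Jun and Junb form the AP-1 factor. Egr1 is a zinc finger factor, Atf3 a stress-induced factor of the CREB/ATF family, and Maff a small MAF factor that pairs with CNC proteins such as NRF2. Nr4a1 encodes the orphan nuclear receptor NUR77, which also acts on genes of glucose and fat metabolism in muscle. Ier2 encodes a nuclear protein of the early response, and Ier3 encodes IEX-1, a regulator of cell survival and of NF-κB and ERK signalling.

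Each heart came from a male Sv129 mouse and was measured on its own Affymetrix array, so every value is an mRNA level in whole heart tissue. Wild type mice were 129S1/SvImJ and PPARα-null mice, labelled PPARalpha -/-, were 129S4/SvJae, so genotype and substrain cannot be told apart. PPARα is a nuclear receptor that senses fatty acids. All mice ate a modified AIN76A diet with olive oil in place of corn oil for 2 weeks, were fasted for 4 h, and received 1 gavage of 400 µL, and hearts were taken 6 h later under isoflurane and nitrous oxide after bleeding from the orbit. The gavage was 0.5% carboxymethyl cellulose as control, which 1 label field gives as none, the PPARα agonist Wy14643 at 10 mg/mL in that vehicle, or a triglyceride made of a single fatty acid. Triolein, trilinolein and trilinolenin carry 18-carbon chains with 1, 2 and 3 double bonds, and tridocosahexaenoin carries 22-carbon chains with 6. There were 3 wild type hearts in the control group, 4 with triolein, 5 with trilinolein, 4 with trilinolenin, 5 with tridocosahexaenoin and 4 with Wy14643, and 5 PPARα-null hearts in each of the 6 groups. The labels give the age both as 9 to 12 weeks and as 2 to 6 months. They describe each array as a separate heart, and the limma p-values below judge differences against the spread between hearts within groups.

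Values are log2 signals, and a member's group mean is given with the SD over its hearts. Levels of different genes are not compared, since each probe set has its own brightness. The brightness minimum for testing was a linear signal of 20 (4.32 in log2) in 3 arrays or more. It left 8238 genes, with all 9 members among them. Nr4a1, Egr1, Jun, Junb, Ier2 and Ier3 exceeded this minimum in all 55 arrays and Fos in 54, but Maff in only 16 and Atf3 in only 13. If a group's mean falls below the minimum, as in most groups for Atf3 and Maff, the size of a difference is not exact. "Called" means a limma p under 0.05 after Benjamini-Hochberg adjustment, made across the 8238 genes for each comparison.

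The arrays were alike in depth: from 29.0% to 30.2% of probe sets lay over the minimum, and the arrays' medians lay between 2.55 and 2.61. Of the 3 probe sets of Ppara, the targeted gene, the brightest had 18 of 30 null arrays below every wild type array and the other two had 29 and 10. The cardiomyocyte genes Myh6, Tnnt2, Tnni3, Actc1, Myl2 and Ryr2 lay at the 99.8th percentile of genes in mean level or above, and 0 of 6 were called in any gavage comparison. The summed linear signal of atrial muscle genes (Nppa, Myl4, Myl7, Sln, Bmp10 and Dkk3) ran from 6407 to 9350 in wild type control hearts and from 14433 to 16211 in wild type triolein hearts, which do not overlap. Their mean log2 signal was 8.09 and 9.25 in these groups. Of the 5 tested 0 were called, in a comparison where only 0.0728% of all tested genes were. No atrial gene was at 0, and Bmp10 was the dimmest. RNA quality was read from the Actb control probe sets, as the 3′ minus the 5′ log2 signal, where a larger value is found with shorter or more degraded RNA. It lay between 0.474 and 0.995 over all arrays. The same difference for the Gapdh control probe sets lay between -0.233 and -0.090 and was not used as a covariate.

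Promoters of some members that moved together, or that moved with the oils, are shown first, because cAMP response elements are a shared entry point to this gene class. Only windows that hold the core of this element are printed, so its presence in them is no result. Jun and Ier3 also moved with an oil, but their windows hold no core and are not printed. Each is the 250 bases before the RefSeq start in the GRCm38.p6 build, read 5′ to 3′ on the gene's strand. The capitals mark the 5-base core TGACG of a cAMP response element, or CGTCA where it lies on the other strand. The Nr4a1 window is chr15:101266596-101266845 (plus strand), the Atf3 window chr1:191183334-191183583 (minus strand), the Fos window chr12:85473640-85473889 (plus strand), and the Junb window chr8:84978749-84978998 (minus strand). Maff has 3 annotated starts, and the window of its second start, chr15:79347270-79347519 (plus strand), is printed.
Nr4a1: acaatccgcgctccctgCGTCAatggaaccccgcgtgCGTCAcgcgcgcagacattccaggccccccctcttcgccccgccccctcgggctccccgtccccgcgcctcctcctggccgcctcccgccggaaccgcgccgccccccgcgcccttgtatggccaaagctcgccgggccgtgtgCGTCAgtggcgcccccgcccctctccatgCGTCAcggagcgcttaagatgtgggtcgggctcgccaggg
Atf3: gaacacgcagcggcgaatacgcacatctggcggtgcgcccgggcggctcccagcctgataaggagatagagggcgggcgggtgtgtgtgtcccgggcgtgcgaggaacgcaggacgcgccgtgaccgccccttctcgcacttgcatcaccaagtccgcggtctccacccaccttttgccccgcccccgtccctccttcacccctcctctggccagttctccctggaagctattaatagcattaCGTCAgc
Fos: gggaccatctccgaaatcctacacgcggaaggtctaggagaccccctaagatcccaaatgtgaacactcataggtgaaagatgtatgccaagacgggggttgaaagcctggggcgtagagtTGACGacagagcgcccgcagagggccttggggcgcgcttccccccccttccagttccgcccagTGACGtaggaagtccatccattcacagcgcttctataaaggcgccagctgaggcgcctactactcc
Junb: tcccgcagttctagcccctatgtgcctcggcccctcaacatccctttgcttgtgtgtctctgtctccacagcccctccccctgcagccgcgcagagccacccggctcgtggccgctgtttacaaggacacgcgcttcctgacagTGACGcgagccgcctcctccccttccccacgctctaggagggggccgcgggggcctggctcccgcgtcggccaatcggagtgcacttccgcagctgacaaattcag
Maff: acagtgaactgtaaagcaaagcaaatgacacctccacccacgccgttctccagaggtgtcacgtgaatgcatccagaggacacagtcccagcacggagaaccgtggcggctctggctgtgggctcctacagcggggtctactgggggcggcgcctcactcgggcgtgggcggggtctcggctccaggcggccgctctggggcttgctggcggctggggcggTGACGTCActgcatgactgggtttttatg

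Windows of 7 of the 9 members, matched by symbol, were used. Member windows on 1 chromosome were left out, and none of Egr1 or Ier2 was used, so the counts below do not cover these genes. The Nr4a1 window held 4 TGACG cores, the outermost 233 and the innermost 36 bases before the start. Of 32851 such windows of 27025 genes, 17.8% held at least 1 core on either strand and 0.137% held at least 4. The Fos window held 2 cores, and the letters TATAAA, found in 12.4% of windows, from 33 to 28 bases before the start. The Atf3 and Junb windows held 1 core each. The Maff window printed held the full element TGACGTCA, which 1.55% of windows hold and which counts as 2 overlapping cores, from 29 to 22 bases before that start. The third Maff window held 1 core, and the windows of Jun and Ier3 and the first of Maff held 0. The AP-1 site TGANTCA, the NGFI-B response element AAAGGTCA bound by NR4A receptors, and the CArG box of serum response factor matched in 0 of these windows, against 6.75%, 1.34% and 1.47% of all windows. A match is only a match of letters, and a missing match says only that these letters are not in this window.

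Over the 4 oils together in wild type hearts, Nr4a1 was the member that differed most from control. In wild type control hearts its log2 signals were 8.23, 8.63 and 8.68. They were 6.64, 6.14, 6.83 and 6.83 with triolein, 7.03, 6.77, 5.42, 7.16 and 7.27 with trilinolein, and 6.36, 6.80, 7.06 and 5.30 with trilinolenin. Every heart of these 3 groups lay below every control heart. With tridocosahexaenoin the values were 7.74, 8.65, 7.47, 7.24 and 7.69, so that 1 heart reached the control range, and with Wy14643 they were 8.72, 8.84, 8.46 and 8.38, within and just above it.

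Against control, wild type Nr4a1 fell by 2.13 ± 0.48 (SE, n = 4 and 3, 4.38-fold, limma adjusted p = 0.00997) with trilinolenin and by 1.78 ± 0.46 (n = 5 and 3, 3.44-fold, limma adjusted p = 0.0395) with trilinolein. It was the only 1 of 9 members called in either comparison, where 3.41% and 1.25% of all tested genes were called. Triolein gave a difference of -1.90 ± 0.48 (n = 4 and 3) that was not called (limma adjusted p = 0.139, unadjusted p = 2.53e-04). In that comparison 0 of 9 members and 0.0728% of all genes were called, and in a fit of the triolein and control groups alone the limma adjusted p was 0.0124. Tridocosahexaenoin gave -0.76 ± 0.46 (limma adjusted p = 0.471), with an interval from -1.68 to 0.17. Over the 4 oils together Nr4a1 fell by 1.64 ± 0.39 (18 oil and 3 control hearts, 3.12-fold, limma adjusted p = 0.0275), the 1 member of 9 called where 1.2% of all genes were. In whole tissue, fewer cells of a type and less RNA per cell cannot be told apart.

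These wild type calls rest on 3 control hearts. The trilinolenin call was lost without control heart 2 (-2.07, limma adjusted p = 0.0642). The trilinolein call was lost without control heart 1 (-1.93), 2 (-1.72) or 3 (-1.70), or trilinolein heart 2 (-1.79) or 3 (-1.46), with limma adjusted p from 0.0613 to 0.20. It was also lost in a fit of the trilinolein and control groups alone (-1.78, limma adjusted p = 0.0694). The call over the 4 oils was lost without control heart 1 (-1.79, limma adjusted p = 0.0663), 2 (-1.58, limma adjusted p = 0.212) or 3 (-1.56, limma adjusted p = 0.121). In each case the direction and most of the size were kept.

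In PPARα-null hearts Nr4a1 was spread more widely. The control values were 8.04, 8.55, 8.97, 8.34 and 9.14, and those with triolein were 8.37, 8.79, 7.87, 8.14 and 8.54, nearly the same range. With trilinolein they were 6.83, 7.74, 8.20, 6.29 and 8.38, and 3 of 5 hearts lay below every control. With trilinolenin they were 8.73, 6.86, 7.21, 6.96 and 7.11, and heart 1 lay far above the other 4. With tridocosahexaenoin they were 9.80, 7.88, 7.76, 8.22 and 6.85, from above every control to below every control. With Wy14643 they were 7.55, 8.77, 8.27, 8.03 and 8.33.

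Null Nr4a1 fell by 1.24 ± 0.40 (n = 5 and 5, 2.36-fold, limma adjusted p = 0.0329) with trilinolenin. Trilinolein gave -1.12 ± 0.40 (limma adjusted p = 0.104), tridocosahexaenoin -0.51 ± 0.40, triolein -0.27 ± 0.40 and Wy14643 -0.42 ± 0.40, none of them called. Over the 4 oils the difference was -0.79 ± 0.31 (limma adjusted p = 0.105). Without trilinolenin heart 1 and tridocosahexaenoin heart 1, a choice made after their values were seen, it was -0.98 and was called (limma adjusted p = 0.0123). Without tridocosahexaenoin heart 1 alone it was -0.89 (limma adjusted p = 0.0343). The trilinolenin call was lost without control heart 2 (-1.25), 3 (-1.15) or 5 (-1.11) or trilinolenin heart 2 (-1.11), 3 (-1.20), 4 (-1.14) or 5 (-1.17), with limma adjusted p from 0.0541 to 0.0953.

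The Actb 3′ minus 5′ difference was on average lower than in controls in the groups where Nr4a1 was called. It averaged 0.793 ± 0.084 in wild type control hearts, 0.637 ± 0.062 with trilinolein and 0.593 ± 0.103 with trilinolenin. With triolein and tridocosahexaenoin it averaged 0.685 ± 0.055 and 0.690 ± 0.093, where Nr4a1 differed from control by -1.90 and -0.76. In null hearts it averaged 0.799 ± 0.069 in controls and 0.705 ± 0.039 with trilinolenin. By two-sided exact permutation tests with no adjustment over the 10 gavage comparisons, p was 0.0357 for wild type trilinolein, 0.0857 for wild type trilinolenin and 0.0238 for null trilinolenin, and above 0.1 in the other 7. With it as a covariate, chosen after the data were seen, the called Nr4a1 differences shrank to -1.40 (wild type trilinolenin, limma adjusted p = 0.194), -1.21 (wild type trilinolein, 0.328), -1.13 (wild type, 4 oils, 0.265) and -0.90 (null trilinolenin, 0.132), and none was called. The wild type triolein difference, not called in the main fit, ran from -2.05 to -1.51 over the 16 alternatives, this covariate included. It was called in 1 of them, the fit of the triolein and control groups alone. The atrial sums given above moved with the triolein group, and their part in its Nr4a1 value was not tested.

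Ordered by mean, Nr4a1 ran from null control (8.61 ± 0.45), wild type Wy14643 (8.60 ± 0.22), wild type control (8.51 ± 0.25) and null triolein (8.34 ± 0.36) down through null Wy14643 (8.19 ± 0.45), null tridocosahexaenoin (8.10 ± 1.08), wild type tridocosahexaenoin (7.76 ± 0.53), null trilinolein (7.49 ± 0.90) and null trilinolenin (7.37 ± 0.77). The 3 wild type groups given 18-carbon oils were lowest: trilinolein (6.73 ± 0.76), triolein (6.61 ± 0.32) and trilinolenin (6.38 ± 0.78). Of the 11 gaps between neighbours in this order, 0 exceeded the larger of both SDs. Across the 6 gavages, limma's F test called Nr4a1 in wild type hearts (adjusted p = 0.00042) and not in null hearts (adjusted p = 0.121). The F test called 6.23% of all genes in wild type and 8.55% in null hearts.

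**Figure D1:**
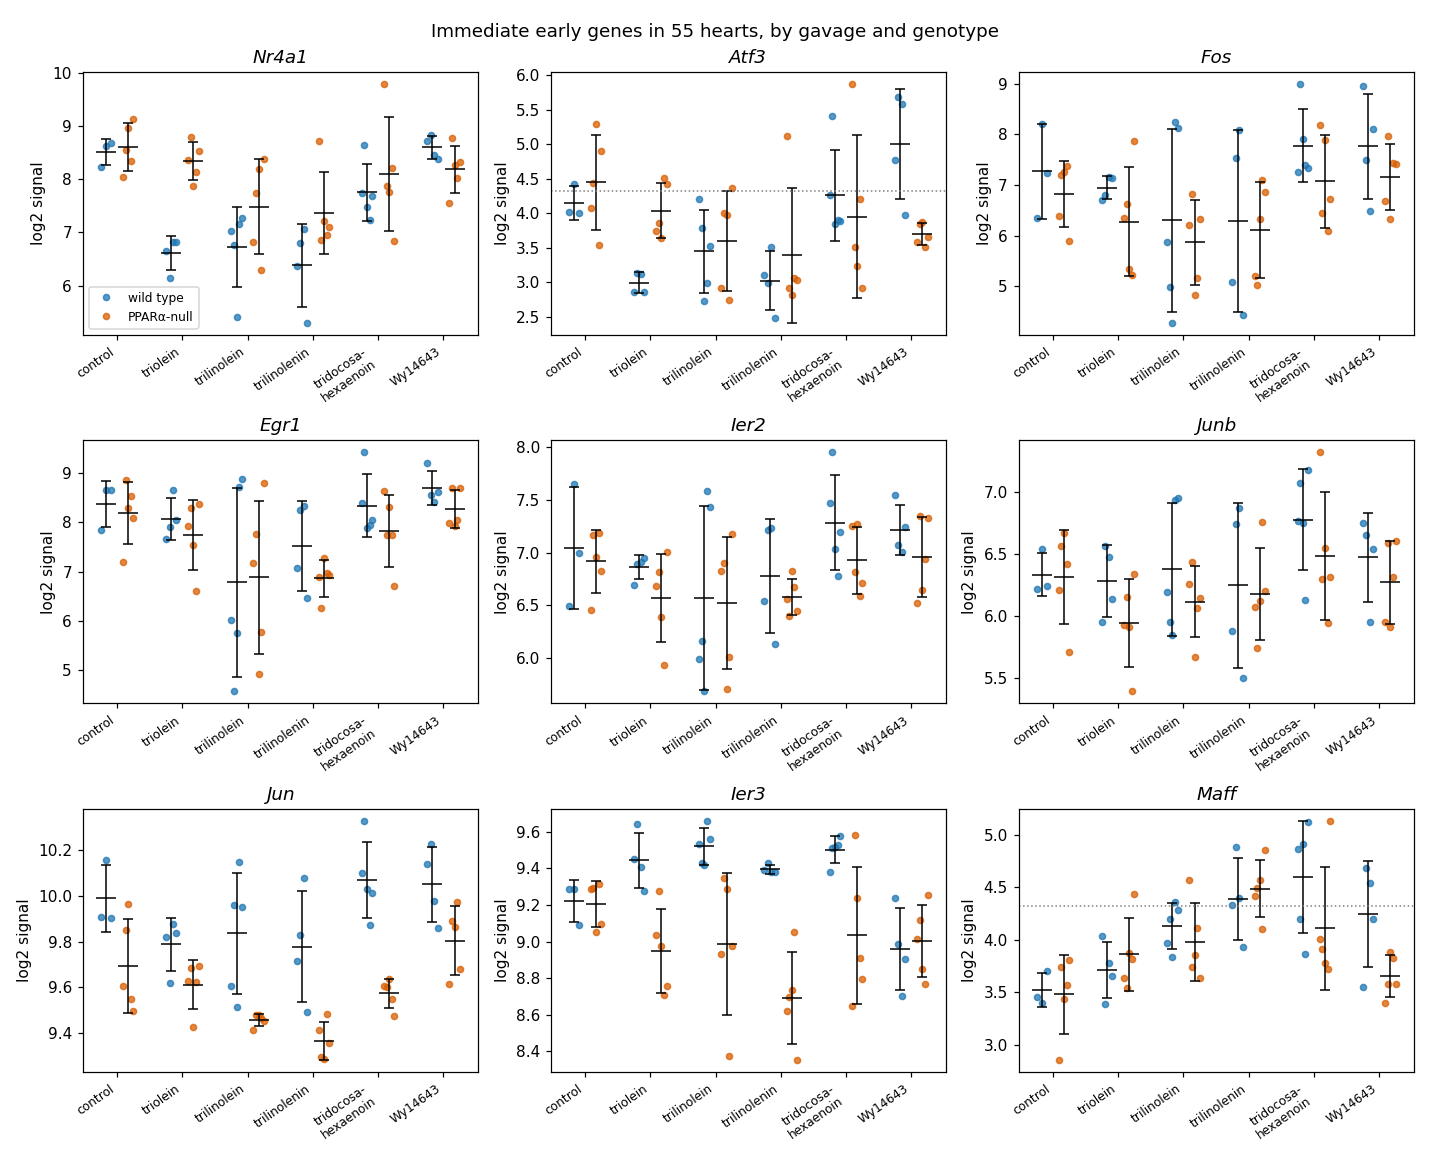
Log2 signal of the 9 genes (1 panel each, with its own axis) by gavage, with wild type hearts in blue and PPARα-null hearts in orange. Points are hearts, horizontal bars the group means and whiskers 1 SD, and the dotted line in the Atf3 and Maff panels is the brightness minimum of 4.32. For Nr4a1 all wild type triolein, trilinolein and trilinolenin hearts lie below the 3 controls, while Fos and Egr1 spread over several log2 units within wild type trilinolein.

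Atf3, the stress-induced repressor, was dim, and its wild type means of 4.15 ± 0.24 in control, 2.99 ± 0.16 with triolein, 3.44 ± 0.60 with trilinolein and 3.02 ± 0.43 with trilinolenin all lie under the brightness minimum. The 3 control hearts were at 4.02, 4.43 and 4.00, and the 4 triolein hearts at 2.86, 3.14, 3.12 and 2.86. Wild type hearts given triolein or trilinolenin did not overlap with controls. With Wy14643 the hearts were at 4.77, 5.68, 5.58 and 3.97, the highest group mean of the 12 (5.00 ± 0.80). The F test across gavages called Atf3 in wild type (limma adjusted p = 0.00971) and not in null hearts (limma adjusted p = 0.422).

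No single gavage was called for Atf3 against control. The differences in wild type hearts were -1.16 ± 0.50 with triolein, -1.13 ± 0.50 with trilinolenin, -0.70 ± 0.48 with trilinolein, 0.11 ± 0.48 with tridocosahexaenoin and 0.85 ± 0.50 with Wy14643, with limma adjusted p from 0.235 to 0.952. In a fit of the 2 groups alone the triolein difference was called (limma adjusted p = 0.0185). In null hearts given trilinolenin, 4 of 5 lay between 2.81 and 3.06 and heart 1 at 5.12, against controls from 3.53 to 5.29. That difference was -1.06 ± 0.42 (limma adjusted p = 0.0872). It was called without trilinolenin heart 1 (-1.49, limma adjusted p = 0.0120) or without control heart 4 (-1.29, limma adjusted p = 0.0474).

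Fos, Egr1, Ier2 and Junb, the fast serum- and stress-responsive members, showed no called difference from control under any of the 5 gavages in either genotype. They differed more between hearts of the same group than nearly all other genes did. Their SDs within groups were 1.06 for Fos, 0.93 for Egr1, 0.47 for Ier2 and 0.41 for Junb, at the 99.9th, 99.9th, 99.0th and 98.2nd percentile of the tested genes, whose median SD was 0.17. Nr4a1 (0.65), Atf3 (0.68) and Maff (0.38) were at the 97.3rd percentile or above, while Ier3 (0.22) was at the 76.0th and Jun (0.16) at the 45.4th.

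Fos, which forms AP-1 with JUN proteins, shows this best. In wild type hearts given trilinolein its values were 5.87, 4.98, 4.28, 8.25 and 8.13, with hearts 1 to 3 below the control range of 6.35 to 8.22 and hearts 4 and 5 at its top. In those given trilinolenin they were 5.09, 7.54, 8.09 and 4.43, with hearts 1 and 4 low. The mean differences from control were -0.97 ± 0.74 and -0.98 ± 0.78 (limma adjusted p = 0.633 and 0.585), with intervals from -2.47 to 0.53 and from -2.55 to 0.59. In null hearts the 5 differences ran from -0.95 ± 0.64 with trilinolein to 0.35 ± 0.64 with Wy14643.

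Egr1, whose protein drives growth and matrix genes, had its lowest values in the trilinolein groups. The wild type trilinolein hearts were at 6.01, 4.57, 5.75, 8.72 and 8.89, against controls at 7.84, 8.65 and 8.65, and the null trilinolein hearts at 7.17, 7.76, 4.91, 5.77 and 8.81, against controls from 7.19 to 8.86. In null hearts given trilinolenin they were at 6.88, 6.25, 7.29, 6.98 and 6.93, and 4 of the 5 lay below every control heart. The differences were -1.59 ± 0.65 (limma adjusted p = 0.260), -1.30 ± 0.56 (limma adjusted p = 0.205) and -1.32 ± 0.56 (limma adjusted p = 0.121). The last was called in a fit of the 2 groups alone (limma adjusted p = 0.0160).

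Ier2 and Junb had smaller ranges. Against control, Ier2 differed by -0.47 ± 0.33 with trilinolein in wild type hearts and by -0.39 ± 0.29 in null hearts, and its 10 gavage differences lay between -0.47 and 0.24. Junb differed most with tridocosahexaenoin in wild type hearts (0.44 ± 0.29, limma adjusted p = 0.523), where its values were 6.76, 7.07, 6.75, 6.13 and 7.17 against controls at 6.22, 6.54 and 6.25. Of these hearts 4 of 5 lay above every control.

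Jun, the main partner of FOS, was the steadiest member. In null hearts it fell by 0.33 ± 0.10 (n = 5 and 5, 1.25-fold, limma adjusted p = 0.0240) with trilinolenin, from 9.61, 9.85, 9.96, 9.55 and 9.50 to 9.41, 9.30, 9.29, 9.48 and 9.36. All 5 trilinolenin hearts lay below all 5 controls. Its second probe set gave -0.25 ± 0.09 there, just short of the threshold (limma adjusted p = 0.0512). The call was lost without null control heart 2 (-0.29) or 3 (-0.26) or trilinolenin heart 2 or 3 (both -0.31), with limma adjusted p from 0.0520 to 0.114, and with the Actb covariate (-0.26, limma adjusted p = 0.0863). It was also lost in a fit of the 2 groups alone (-0.33, limma adjusted p = 0.0613). In wild type hearts the largest Jun difference was -0.21 ± 0.12 with trilinolenin (limma adjusted p = 0.387).

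Ier3, the survival and NF-κB regulator, was called in null hearts only under trilinolenin and in wild type hearts under no gavage. In wild type hearts the controls were at 9.29, 9.29 and 9.09, and the 18 oil hearts lay between 9.27 and 9.66, with differences from 0.17 ± 0.17 for trilinolenin to 0.30 ± 0.16 for trilinolein, none called. In null hearts the controls ran from 9.05 to 9.31, and trilinolenin hearts were at 8.62, 8.70, 8.73, 9.05 and 8.35. This fall of 0.51 ± 0.14 (1.43-fold, limma adjusted p = 0.00941) was called, and was lost without trilinolenin heart 5 (-0.43, limma adjusted p = 0.0515). The other 3 null oil differences ran from -0.26 ± 0.14 to -0.17 ± 0.14 and were not called. Over the 4 oils the interaction, null response minus wild type response, was -0.54 ± 0.17 with an unadjusted p of 0.00363, and was not called (limma adjusted p = 0.997).

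Maff, the small MAF partner of NRF2 and BACH proteins, was the member that rose with oils. In null hearts given trilinolenin its values were 4.41, 4.49, 4.57, 4.10 and 4.85, all above every control (2.86, 3.74, 3.44, 3.56 and 3.80). It rose by 1.00 ± 0.23 there (2.00-fold, limma adjusted p = 0.0029), and by 0.63 ± 0.18 over the 4 oils (limma adjusted p = 0.0225), the 1 member of 9 called in that comparison, where 9.8% of all genes were. The rise over the 4 oils was not called without null control heart 1 (0.47, limma adjusted p = 0.141) or 3 (0.62, limma adjusted p = 0.0693). The control mean of 3.48 ± 0.38 lies under the brightness minimum, so these sizes are not exact.

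In wild type hearts Maff rose by 1.08 ± 0.27 (n = 5 and 3, 2.11-fold, limma adjusted p = 0.0311) with tridocosahexaenoin, the 1 member of 9 called where 1.86% of all genes were. The values were 4.87, 4.20, 4.91, 3.87 and 5.12 against controls at 3.45, 3.40 and 3.70, and did not overlap. Trilinolenin gave 0.87 ± 0.28 (limma adjusted p = 0.0795) and trilinolein 0.61 ± 0.27 (limma adjusted p = 0.319), again with no overlap, and triolein 0.20 ± 0.28 and Wy14643 0.73 ± 0.28 with overlap. The tridocosahexaenoin call was lost without control heart 1 (1.04) or 2 (1.01) or tridocosahexaenoin heart 1 (1.01), 3 (1.00) or 5 (0.94), with limma adjusted p from 0.0575 to 0.179. A fit of the 2 groups alone also lost it (1.08, limma adjusted p = 0.147).

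**Figure D2:**
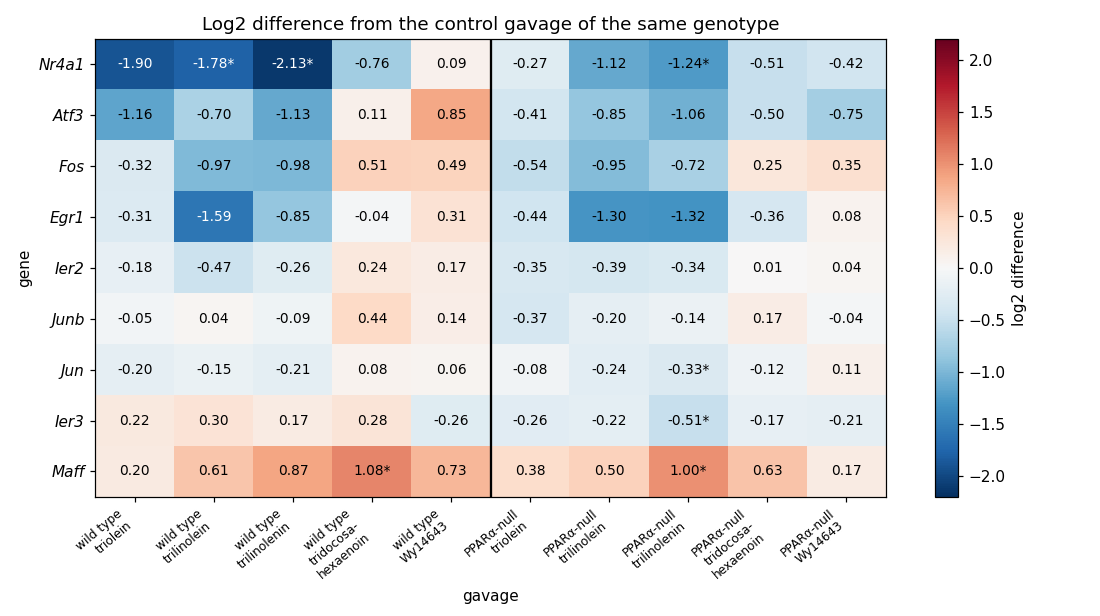
Difference in log2 signal between each gavage and the control of the same genotype, for 9 genes (rows) and 10 comparisons (columns, wild type left and PPARα-null right of the line), coloured from -2.2 (blue) to 2.2 (red). Asterisks mark limma adjusted p under 0.05 over all tested genes, which 7 of the 90 values reach, 4 of them with trilinolenin in null hearts.

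Read over the class, trilinolenin in null hearts gave the most calls, 4 of 9 members (Nr4a1, Jun and Ier3 lower, Maff higher) where 11.9% of all genes were called, 7.3% as lower and 4.65% as higher. The median over members was -0.51 and over all tested genes -0.02. The other null gavages called 0 of 9, with 1.15% (triolein), 4.32% (trilinolein), 3.54% (tridocosahexaenoin) and 0.0728% (Wy14643) of all genes called. At an unadjusted p under 0.05 these 4 comparisons had 0, 5, 1 and 0 members, and 1209, 1430, 1454 and 814 of the 8238 genes. Wy14643 in wild type hearts called 0 of 9 members (1 at an unadjusted p under 0.05, as were 614 of 8238 genes) and 0.0607% of all genes. Comparisons within a genotype share its control hearts, so their values are not independent.

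The 4 triglycerides were given at the same volume and time and were compared pair by pair, 6 pairs in each genotype. Over all tested genes 0 of 9 members were called in any of the 12 pairs, where the share of all genes called ran from 0% to 1.01%. It was, in wild type hearts, 0.0364% for trilinolein against triolein, 0.522% for trilinolenin against triolein, and 0.534%, 0.765% and 0.558% for tridocosahexaenoin against triolein, trilinolein and trilinolenin. In null hearts the same 5 pairs gave 0.413%, 1.01%, 0.0121%, 0.388% and 0.328%. From 0 to 5 members a pair passed an unadjusted p of 0.05, as did from 263 to 1106 of the 8238 genes. The widest differences were between tridocosahexaenoin and the 18-carbon oils in wild type hearts. Egr1 was higher with tridocosahexaenoin than with trilinolein by 1.55 ± 0.56, and Fos was higher than with trilinolenin by 1.49 ± 0.68 and than with trilinolein by 1.48 ± 0.64 (limma p over the 12 pairs 0.103, 0.207 and 0.207). Nr4a1 was higher with tridocosahexaenoin than with trilinolenin by 1.37 ± 0.42 (interval 0.53 to 2.22, limma p over all genes 0.139, and 0.0252 when adjusted over the 12 pairs for this gene), than with triolein by 1.15 ± 0.42 (0.252 and 0.0517) and than with trilinolein by 1.03 ± 0.40 (0.286 and 0.0517). Maff was higher with tridocosahexaenoin than with triolein by 0.88 ± 0.25 (limma p over all genes 0.0796, over the 12 pairs 0.0111). Atf3 was higher with tridocosahexaenoin than with triolein by 1.27 ± 0.44 and than with trilinolenin by 1.24 ± 0.44 (limma p over the 12 pairs 0.0434 for both, over all genes 0.202 and 0.249). Trilinolein and trilinolenin, which differ by 1 double bond a chain, called 0 members and 0% of all genes in either genotype, with a Nr4a1 difference in wild type hearts of -0.35 ± 0.42 (interval -1.19 to 0.50). Wy14643 was given as a suspension in carboxymethyl cellulose and not as an oil, so its values stand beside those of the oils with no test.

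Between genotypes, Jun and Ier3 were lower in null than in wild type hearts. Averaged over the 6 gavages Jun was lower by a log2 difference of -0.33 ± 0.04 (limma adjusted p = 1.25e-08) and Ier3 by -0.36 ± 0.06 (limma adjusted p = 2.5e-06), while Nr4a1 was higher by 0.59 ± 0.17 (limma adjusted p = 0.00549). These 3 of 9 members stand against 39% of all genes called in that average. The second Jun probe set gave -0.14 ± 0.04 (limma adjusted p = 0.00196). With the Actb covariate, whose values were higher in null hearts, the Nr4a1 difference was 0.27 and not called (limma adjusted p = 0.290), and Fos (-0.93), Ier2 (-0.42) and Junb (-0.36) were called as lower.

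In control hearts alone 0 of 9 members were called between the genotypes, where 3.62% of all genes were, and the differences in Nr4a1 (0.10 ± 0.46) and Ier3 (-0.02 ± 0.16) were small against their errors. Jun differed there by -0.30 ± 0.11 (unadjusted p = 0.0134, limma adjusted p = 0.196), the 1 member at an unadjusted p under 0.05, where 1082 of 8238 genes were. Under each of the 4 oils 2 of 9 members were called, where 7.93% (triolein), 9.63% (trilinolein), 9.54% (trilinolenin) and 9.57% (tridocosahexaenoin) of all genes were. With triolein they were Nr4a1, higher in null hearts by 1.73 ± 0.42 (n = 5 and 4, 3.32-fold, limma adjusted p = 0.00443), and Ier3, lower by -0.49 ± 0.15 (limma adjusted p = 0.0246). All 5 null triolein hearts, from 7.87 to 8.79, lay above all 4 wild type triolein hearts, from 6.14 to 6.83. With the other 3 oils they were Jun (-0.38, -0.41 and -0.49) and Ier3 (-0.54, -0.70 and -0.47). The second Jun probe set gave -0.23, -0.17 and -0.22 there and was called under none of these 3 oils (limma adjusted p = 0.0824, 0.304 and 0.106).

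Heat shock genes and markers of other cells also differed between the genotypes in the average over the 6 gavages. The counts below stand against 39% of all tested genes called there in either direction. Of 7 heat shock genes 4 were lower in null hearts: Hspa1b (-1.09), Hspa1a (-0.74), Dnajb1 (-0.64) and Hspb1 (-0.16). The list's median was -0.16 and that of all genes 0.02. Of 8 endothelial markers 3 were higher (Cldn5, 0.73, Kdr, 0.66, and Esam, 0.12) and 2 lower (Tek, -0.16, and Pecam1, -0.10), and of 8 macrophage markers 6 were higher, among them Mrc1 (0.34), Cd68 (0.32), C1qb (0.32) and C1qa (0.30), and 1 lower. Of 6 smooth muscle markers 2 were higher and 1 lower, and of 8 fibroblast markers 1 was higher and 4 lower. The summed signals overlapped: 1731 to 2368 in null against 1763 to 2161 in wild type hearts for endothelium, 1839 to 2597 against 1825 to 2656 for macrophages, 3819 to 5637 against 3969 to 5370 for smooth muscle and 5475 to 6957 against 5780 to 7935 for fibroblasts. Cidea, the 1 brown adipocyte marker tested, was lower in null hearts (-0.77), and the summed signal of that list, 142 to 248 against 249.8 to 370.2, did not overlap. The part of these genes in the values of the members was not tested.

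Several of the members' genotype calls rested on a single heart. For Ier3 under triolein the call was lost without wild type heart 1 (-0.49) or 2 (-0.43) or null heart 4 (-0.43) or 5 (-0.45), with limma adjusted p from 0.0511 to 0.102. Under trilinolein it was lost without null heart 4 (-0.38, limma adjusted p = 0.0610), and under tridocosahexaenoin without null heart 1 (-0.37), 4 (-0.44) or 5 (-0.41), with limma adjusted p from 0.0544 to 0.0922. For Jun it was lost without wild type trilinolein heart 4 (-0.30, limma adjusted p = 0.0545) and without wild type trilinolenin heart 3 (-0.31, limma adjusted p = 0.0812). Nr4a1 under triolein was called without each of the 9 hearts in turn. In fits of only the groups compared, Jun lost its calls under trilinolein and trilinolenin (limma adjusted p = 0.0588 and 0.0597). Ier3 there lost those under trilinolein and tridocosahexaenoin (limma adjusted p = 0.0603 and 0.136).

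With Wy14643, 0 of 9 members were called between the genotypes, where 9.27% of all genes were. Atf3 came nearest, at 3.59, 3.84, 3.87, 3.51 and 3.66 in null hearts against 4.77, 5.68, 5.58 and 3.97 in wild type hearts, with no overlap. The difference was -1.31 ± 0.44 (limma adjusted p = 0.0516), and it was called without wild type Wy14643 heart 4 (-1.65, limma adjusted p = 0.0188). In the same comparison 3 of 7 heat shock genes were lower in null hearts: Hspa1b (-2.69 ± 0.74), Hspa1a (-2.07 ± 0.66) and Dnajb1 (-1.18 ± 0.24), with limma adjusted p of 0.0124, 0.0344 and 0.000397. Their part in the Atf3 difference was not tested. Without wild type Wy14643 heart 1 the Maff difference was called (-0.82, limma adjusted p = 0.0417), as it was with tridocosahexaenoin without null heart 5 (-0.74, limma adjusted p = 0.0267).

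Whether a gavage acted differently in the genotypes was tested directly. In 6 interactions (5 gavages and the mean of the 4 oils) 0 of 9 members and 0% of all genes were called by limma, and at an unadjusted p under 0.05 there were 1 or 2 members in each, and from 255 to 399 of the 8238 genes. For Nr4a1 the null response exceeded the wild type response by 1.63 ± 0.62 with triolein (interval 0.38 to 2.89, unadjusted p = 0.0119, limma adjusted p = 0.900). For Atf3 with Wy14643 the interaction was -1.60 ± 0.65 (unadjusted p = 0.0176) and was not called by limma. The largest Ier3 interaction was -0.69 ± 0.22, with trilinolenin (unadjusted p = 0.00264, limma adjusted p = 0.869). A call in 1 genotype and not in the other is therefore not shown to be a difference between them.

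From heart to heart within groups, the members varied in blocks. Each heart's deviation from its group mean was taken, which removes gavage and genotype, and correlated over the 55 hearts for all 36 pairs, with two-sided permutation p-values from 100000 permutations within groups. Of the 36 pairs 18 passed a Benjamini-Hochberg adjusted p of 0.05. The hearts share the normalization of their arrays, and the labels name no batch within which to repeat this.

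Fos, Egr1, Ier2 and Junb formed the tightest block, with r from 0.69 (Egr1 with Junb) to 0.89 (Egr1 with Ier2, Spearman's rho 0.93, permutation p = 1e-05, the smallest these permutations can give). Fos correlated with Ier2 at 0.86 (rho 0.87) and with Junb at 0.85 (rho 0.86), each with permutation p = 1e-05 and adjusted p = 4.5e-05. Without the 2 hearts farthest out in Fos these were 0.83 and 0.83. All 4 genes lay below their group mean together in 21 hearts, above it together in 21, and on mixed sides in 13. So the wild type trilinolein hearts that are low in Fos (1 to 3) are also the hearts low in Egr1 (6.01, 4.57 and 5.75), Ier2 (5.99, 6.17 and 5.69) and Junb (6.19, 5.95 and 5.85).

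Nr4a1 and Atf3 formed another pair, at r = 0.80 (rho 0.74, permutation p = 1e-05, adjusted p = 4.5e-05), 0.61 over the 25 wild type hearts and 0.88 over the 30 null hearts, and 0.75 without the 2 hearts farthest out in Nr4a1. They lay on the same side of their group means in 42 of 55 hearts. Nr4a1 correlated less with the Fos block (0.43 to 0.51), and with Fos the value was 0.76 over wild type and 0.19 over null hearts. Atf3 showed little relation to that block, at 0.10 with Fos (permutation p = 0.515) and 0.19 with Egr1 (permutation p = 0.205). Jun correlated with the Fos block at 0.43 to 0.61, more in wild type than in null hearts. The difference of these correlations between the genotypes was not tested.

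Ier3 and Maff stood apart from the other members. They correlated with each other at -0.40 (rho -0.40, permutation p = 0.0108, adjusted p = 0.0230), and their correlations with the other 7 lay between -0.14 and 0.23, none past the threshold after adjustment. By rank, Ier3 with Junb did pass (rho 0.31, adjusted permutation p = 0.0477). The Actb 3′ minus 5′ difference followed the same division: within groups it correlated with Nr4a1 (0.42, rho 0.45, permutation p = 0.00111, adjusted over 9 genes 0.00999), Ier2 (0.37), Junb (0.34), Fos (0.34), Atf3 (0.33) and Egr1 (0.30), all past the threshold, and not with Ier3 (0.04) or Maff (0.18). Jun gave 0.31 (permutation p = 0.0570). The same difference for the Gapdh control probe sets correlated less with Nr4a1 (0.15). Its correlations with the 9 members ran from -0.17 (Ier3) to 0.21 (Egr1), and no p was computed for them. The part of either difference in the correlations among members was not tested.

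**Figure D3:**
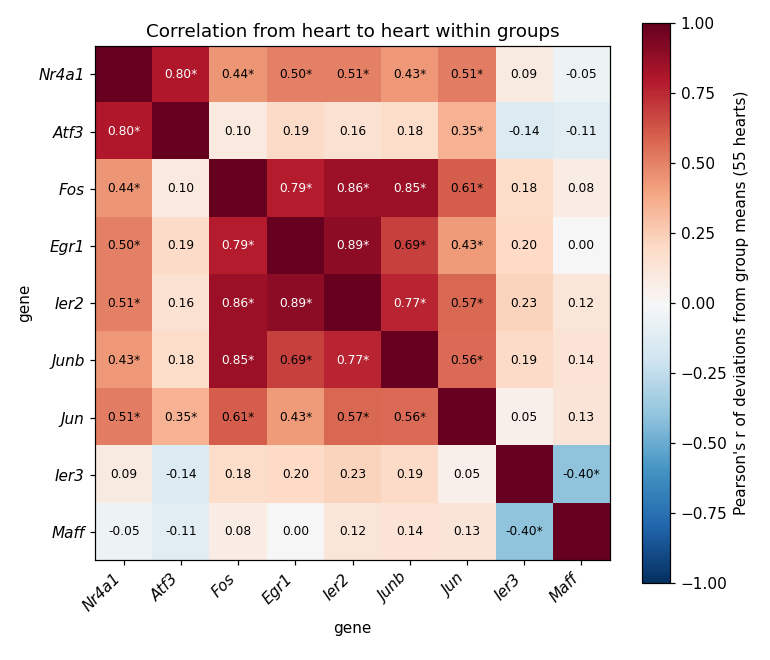
Pearson's r between members, of the deviations of 55 hearts from their group means, from -1 (blue) to 1 (red). Asterisks mark a permutation p under 0.05 after adjustment over the 36 pairs, and the Fos, Egr1, Ier2 and Junb block (0.69 to 0.89) and the pair of Nr4a1 with Atf3 (0.80) stand out.

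**Figure D4:**
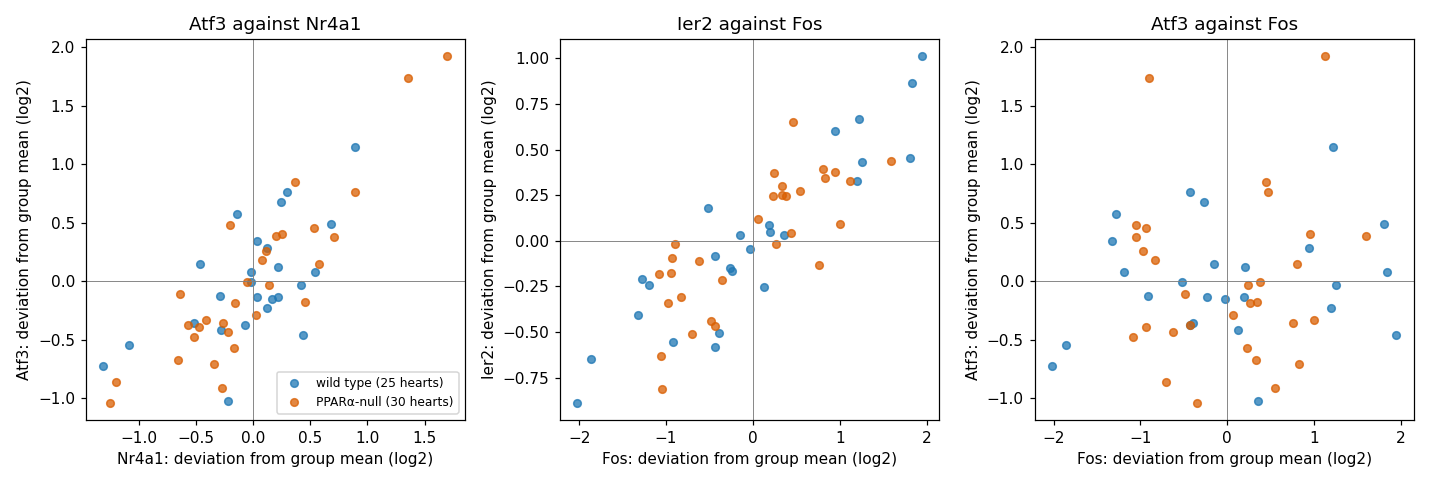
Deviations from the group mean (log2 signal) of 55 hearts for Atf3 against Nr4a1 (r = 0.80), Ier2 against Fos (r = 0.86) and Atf3 against Fos (r = 0.10). Each point is a heart, wild type in blue and PPARα-null in orange, and the first 2 panels show a slope while the third shows none.

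Among all 8238 genes, those whose deviations were most like a member's over the 55 hearts are given as a description. For Nr4a1 they were Otud1, a deubiquitinase (r = 0.81), Atf3 (0.80) and the kinase gene Pak2 (0.62), and for Atf3 they were Nr4a1, its paralogue Nr4a3 (0.68) and Otud1 (0.64). For Fos they were Btg2, an antiproliferative early gene (0.91), Ier2 (0.86) and Junb (0.85), and Btg2 was also among the 3 nearest for Ier2 (0.88), Junb (0.82) and Jun (0.60). For Egr1 they were Ier2, Fos and Ccn1, which encodes a secreted matrix protein (0.77). Ier3 was nearest to Myct1 (0.71), the KIT ligand gene Kitl (0.71) and the junction gene Afdn (0.69), and Maff to the p53-inducible Trp53inp1 (0.77), the mitophagy gene Bnip3 (0.74) and Tinagl1 (0.74).

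Upstream of the members, 18 kinases and factors were tested, and none was called as higher under any gavage against its control. Srf, which encodes serum response factor, fell with trilinolein and trilinolenin in both genotypes, by 0.63 ± 0.15 and 0.73 ± 0.16 in wild type hearts and by 0.68 ± 0.13 and 0.75 ± 0.13 in null hearts (limma adjusted p from 0.000154 to 0.0241). With trilinolenin in null hearts 7 of 18 fell (median -0.24, all genes -0.02), where 7.3% of all tested genes were called as lower. Among the 7 were Elk3 (-0.80), Ets2 (-0.45) and Ets1 (-0.38), which encode ETS factors, and Mapk14, the gene of the p38 kinase (-0.35). In wild type hearts 2 of 18 fell with trilinolein (Srf and Elk4), 3 with trilinolenin (Srf, Mef2a and Mapk9) and 2 with tridocosahexaenoin (Mef2c and Mef2d). Of all tested genes 1.25%, 3.41% and 1.86% were called there in either direction. In null hearts 1 of 18 fell with triolein (Ets2), 1 with trilinolein (Srf) and 1 with tridocosahexaenoin (Mapk14), and 0 with Wy14643 in either genotype or with triolein in wild type hearts. Of all tested genes 1.15%, 4.32% and 3.54% were called in either direction with null triolein, trilinolein and tridocosahexaenoin.

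Among 40 other early response genes tested, Bhlhe40, the clock and hypoxia repressor DEC1, fell with trilinolein and trilinolenin in both genotypes, by 0.71 ± 0.19 and 0.76 ± 0.20 in wild type and by 0.56 ± 0.16 and 0.97 ± 0.16 in null hearts. It was the only 1 of 40 called in wild type hearts against the control gavage. Of all genes 1.25% were called there with trilinolein and 3.41% with trilinolenin. In null hearts given trilinolenin 6 of 40 rose (median of the list 0.14, all genes -0.02, with 4.65% of all genes called as higher). They were Cebpd (0.92 ± 0.23), Gadd45b (0.89 ± 0.22), Ccn2 (0.88 ± 0.25), Cebpb (0.76 ± 0.16), Sgk1 (0.63 ± 0.21) and Nfkbia (0.51 ± 0.15), which encode C/EBP factors, a stress sensor, a matrix protein, a kinase and the NF-κB inhibitor IκBα. With trilinolein 2 of 40 rose (Gadd45b, 0.81, and Cebpb, 0.63), and with tridocosahexaenoin 1 did (the kinase gene Pim1, 0.57). In these 2 comparisons 4.32% and 3.54% of all genes were called in either direction. So in null trilinolenin hearts some early genes were higher while Nr4a1, Jun and Ier3 were lower.

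Of 15 dimer partners tested, Rxrg, which encodes a retinoid X receptor, fell in null hearts with trilinolein (-0.30 ± 0.08) and trilinolenin (-0.39 ± 0.08). Of all genes 4.32% were called in either direction with null trilinolein, and 7.3% as lower with null trilinolenin. Over the 4 oils in null hearts Rxrg fell (-0.28 ± 0.06) and Mafk, a small MAF like Maff, rose (0.24 ± 0.08, limma adjusted p = 0.0419). In that comparison 9.8% of all genes were called. No partner was called in wild type hearts against the control gavage. Of 15 genes reported as later targets of EGR1, AP-1 or NR4A, none was called as higher under a gavage than in its control. Ccnd1, the gene of cyclin D1, fell in wild type hearts with trilinolein (-0.69 ± 0.16), trilinolenin (-0.56 ± 0.17) and tridocosahexaenoin (-0.84 ± 0.16). It fell in null hearts with the same 3 oils (-0.78, -0.90 and -0.68). Vegfa fell with trilinolein and trilinolenin in both genotypes, from -0.45 to -0.61. With trilinolenin in null hearts 6 of 15 fell (Ccnd1, Pdgfb, Vegfa, Nab2, Pdgfa and Eno3), and with trilinolein 4 of 15. Of all genes, 7.3% were called as lower with null trilinolenin, and 4.32% in either direction with null trilinolein.

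Handling of the tissue was looked at through 7 heat shock genes. Dnajb1, an HSP70 co-chaperone, was lower with trilinolenin in wild type hearts (-1.17 ± 0.27, limma adjusted p = 0.0123) and with triolein (-0.85), trilinolein (-0.92) and trilinolenin (-1.06) in null hearts (limma adjusted p from 0.0012 to 0.0441), and no other of the 7 was called for a single gavage against its control. Its part in the values of the members was not tested. Markers of other cells, named after their values were seen, moved in the trilinolein and trilinolenin groups too. In wild type hearts given trilinolenin Kdr (1 of 8 endothelial markers, -0.85) and Myocd (1 of 6 smooth muscle markers, -0.66) were lower. In null hearts given trilinolenin Col1a1 and Col3a1 (2 of 8 fibroblast markers, -0.72 and -0.87), Kdr and Emcn (2 of 8, -0.61 and -0.39) and Myocd (1 of 6, -0.34) were lower, and Esam (1 of 8, 0.54) and the macrophage gene Cd163 (1 of 8, 0.69) higher. With trilinolein in null hearts Col1a1 and Col3a1 were lower (-0.78 and -0.82) and Esam and Cd163 higher (0.37 and 0.60), and Cd163 was higher with tridocosahexaenoin (0.73). Of all genes, 3.41% were called with wild type trilinolenin, and 4.32% and 3.54% with null trilinolein and tridocosahexaenoin. With null trilinolenin 7.3% were called as lower and 4.65% as higher. The summed linear signals of control and trilinolenin hearts overlapped for these lists in both genotypes: in null mice they were 1833 to 2232 against 2074 to 2204 for endothelium, 6174 to 6850 against 6101 to 6957 for fibroblasts, 4098 to 5398 against 4617 to 5637 for smooth muscle and 1849 to 2336 against 1970 to 2355 for macrophages. In wild type mice they were 1974 to 2064 against 1898 to 2047, 6547 to 6927 against 5878 to 7935, 4409 to 5370 against 3969 to 4595 and 1890 to 1992 against 1826 to 2656. Wild type trilinolein hearts did not overlap with controls in smooth muscle (4051 to 4309) or macrophage (2035 to 2452) signal. Brown adipocyte markers, of which 1 was tested and 0 called against control, ran from 255 to 292 in wild type controls, and from 304 to 343 with trilinolein and 297 to 370 with trilinolenin, also without overlap. The dimmest markers were Kdr, Col1a1, Cnn1, Cd68 and Ucp1, with none at 0. The part of these cells in the values of the members was not tested.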

How the data were processed

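Whole hearts of 55 mice were hybridised to 1 Affymetrix array each, from 5 µg of total RNA. The deposited values are log2 signals made by the authors with GCRMA 2.2.0, per the submitters' processing notes, and the genome build of the probe annotation is not given in the sources used here. GCRMA shares information across arrays and compresses dim signals, so differences of Atf3 and Maff are the least exact. An array has no read depth, and the number of hearts limits the precision. Of 45101 probe sets, 34958 carried 1 gene symbol, 932 several and 9211 none, and those with 1 were used.

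A linear model of the 12 group means was fitted to the 8238 genes over the brightness minimum with limma 3.58.1 in R 4.3.3 (lmFit and eBayes, Benjamini-Hochberg adjustment per comparison, 95% intervals). Differences are given with their SE. Permutations ran in Python 3.11.15 with numpy 2.4.6. The methods were tested on simulated data. The members and gene lists were chosen with earlier results of these data known. Pathway genes were named where called, up to 4 rises and 4 falls of largest size per list and comparison, and for each member the 3 genes with the highest correlation. Sgk1, Nfkbia, Pdgfa, Eno3, Mapk14 and the cell markers lie outside that rule and were named after their values were seen.

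The alternatives were no filter, a minimum of 100, the mean of all probe sets, quantile normalization, array weights, a trended robust prior, a replicate block, fits of only the groups compared, and leaving out each heart. Leaving out 2 null hearts together and the Actb covariate were added after the data were seen. Correlations between the deviations of same-numbered gavage and control hearts ran from -0.234 to 0.231, and the numbers were not taken to pair them. For wild type Wy14643 all 3 were positive, from 0.060 to 0.172.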

Additional observations from a re-analysis of the deposited data

Results flagged for a closer look

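In 6 of 99 groups of a member with 4 or more hearts, 1 heart stood apart from the others by a gap above the 95% critical value of Dixon's test, which chance gives in about 1 group in 20. For Nr4a1 these were wild type trilinolein heart 3, the lowest at 5.42, and null trilinolenin heart 1, the highest at 8.73. The latter heart was also the highest of its group in Atf3, at 5.12. Wild type tridocosahexaenoin heart 2 was the highest of its group in Atf3, at 5.40. For Jun, null triolein heart 3 was the lowest of its group at 9.43, and for Maff, null tridocosahexaenoin heart 5 was the highest at 5.13.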

How the results depend on the processing

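Of the differences followed, 0 of those called and 23 of those not called changed sign under an alternative, and the number of members called (of 9) changed as follows. With no filter on dim genes it was 0 for wild type trilinolein and tridocosahexaenoin and 3 for null trilinolenin. With a minimum of 100, which Maff does not reach, it was 0 for wild type tridocosahexaenoin and for the 4 oils in null hearts and 3 for null trilinolenin. With the mean of all probe sets it was 1 between genotypes under Wy14643. With array weights it was 2 for wild type trilinolenin, for the 4 oils in wild type hearts, for the 4 oils in null hearts and between genotypes under Wy14643, 1 between genotypes under tridocosahexaenoin and for wild type tridocosahexaenoin against triolein, and 4 between genotypes on average. With the replicate number as a block, a number not taken to pair the hearts, it was 0 for wild type trilinolein, 2 for wild type trilinolenin and 1 between genotypes under Wy14643. In fits of only the groups compared it was 2 for wild type triolein, 0 for wild type trilinolein, 0 for wild type tridocosahexaenoin, 0 between genotypes under trilinolein, 3 under triolein, and 1 under trilinolenin, tridocosahexaenoin and Wy14643. Without null trilinolenin heart 1 and null tridocosahexaenoin heart 1 it was 5 for null trilinolenin, 3 for the 4 oils in null hearts and 1 between genotypes under tridocosahexaenoin. With the Actb covariate it was 0 for wild type trilinolein, trilinolenin and the 4 oils, 2 for null trilinolenin, 2 between genotypes under Wy14643 and 5 between genotypes on average. Leaving out each heart in turn, it ran from 0 to 1 for wild type trilinolein, trilinolenin, tridocosahexaenoin, the 4 oils, tridocosahexaenoin against triolein and genotypes under Wy14643, from 2 to 5 for null trilinolenin, from 0 to 2 for the 4 oils in null hearts, and from 1 to 2 between genotypes under each oil. The cause of these changes was not tested. The call of Maff under null trilinolenin held in all 10 fits without 1 heart, and those of Jun and Ier3 between genotypes on average in all 55. The dim signals of Atf3 and Maff limit what can be said of them.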
